A study of Homo sapiens with 24 samples.

Results

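DLD1 cells are an established human colorectal adenocarcinoma line, and 4 of the 24 libraries of the series give the state of 2 engineered DLD1 lines before any degrader acted. The 4 libraries were chosen by their labels as the time 0 h of batch 2. A pair came from the N211del line and a pair from the INTS11 line, labelled as biological duplicates. In the N211del line a dTAG tag had been knocked in at INTS8 and a mutant INTS8, INTS8-N211del, was then expressed ectopically. In the INTS11 line the dTAG tag had been knocked in at INTS11. At 0 h dTAG13, the compound that sends a tagged protein to degradation, had not acted, so by its genotype the N211del line held both its tagged INTS8 and the ectopic mutant. Each line thus carries a tag that the other does not have, no untagged DLD1 line is among the samples, and the labels do not say whether a line is 1 clone. The assay was TT-seq: newly made RNA is labelled for a short time, isolated and sequenced, and a value per gene therefore follows current transcription more than the stored mRNA. The same lines were also measured in batch 2 after 1 h and 3 h of dTAG13, and in batch 1 with the vehicle DMSO for 3 h, where the INTS8 line (dTAG-tagged INTS8, with no mutant added) was measured too; each of these groups had 2 libraries.

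Integrator is a complex that binds RNA polymerase II near the start of genes. One module, built around INTS11, cuts the nascent RNA, and another joins the phosphatase PP2A to the complex through INTS8 and removes phosphates from the polymerase and its partners. Both activities act on paused polymerase, and genes that are switched on quickly by growth signals are known to be sensitive to the complex. The genes INTS8 and INTS11 themselves, and PPP2CA for the chief PP2A catalytic subunit, are not analysed here.

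The values are those deposited, a level per kilobase of gene, and were tested as log2(value + 0.1) with limma across the 12 libraries of batch 2. A gene is called where the adjusted p is under 0.05, and log2 fold changes are N211del over INTS11. The N211del libraries held 8709833 and 9567550 whole-number units and the INTS11 libraries 10533936 and 9023535, with a median gene at 572 and 626 units in N211del cells and at 685 and 584 in INTS11 cells. Across genes, the replicate libraries correlated at r = 0.9945 for N211del and 0.9947 for INTS11. The INTS11 pair differed by no more than sampling noise (chi-square test over genes, p = 0.121), and the N211del pair differed slightly more (p = 0.0112). Of 18 markers of colorectal epithelium 12 were listed, and their summed level was 3454 to 3532 in N211del cells and 3657 to 3833 in INTS11 cells. Most of that sum came from the keratins KRT8, KRT18 and KRT19. EPCAM, the epithelial adhesion protein, read 120.8 and 130.8 in N211del cells, against 134.0 and 122.4 in INTS11 cells. KRT20, a keratin of mature colon cells, was listed at 0 in all 4. LGALS4, CEACAM5 and CEACAM6 were also low, at most 0.655 in any of these libraries. Of 36 markers of other lineages 4 were listed, with a summed level of 40.1 to 42.8 in N211del cells and 38.5 to 39.3 in INTS11 cells, nearly all of it TUBB3.

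The lines differed at 0 h over most of the genes measured. Of 6950 genes tested, 2668 (38.4%) were higher and 2194 (31.6%) lower in N211del cells, so that 70.0% were called in either direction. Most of the called differences were below 2-fold. The median of the signed log2 fold changes was 0.05, beside a median SE of 0.06. That median reflects the balance of directions and not the size of the differences. Of the genes tested, 215 (3.09%) were called and at least 2-fold higher and 324 (4.66%) called and at least 2-fold lower. In each of those 539 genes both N211del libraries lay on the same side of both INTS11 libraries, as they did in 82.3% of all genes tested. With each pair of batch 2 that agreed within sampling noise counted as 1 sample, the INTS11 pair at 0 h among them, 4208 genes were called.

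Several of the genes with the largest positive differences encode secreted proteins or enzymes. NPPB, which encodes the natriuretic peptide BNP, read 16.6 and 12.4 in N211del cells, against 0 and 0 in INTS11 cells. It was listed at 0 in both INTS11 libraries, so no fold is given. UGT1A6, an enzyme that joins glucuronic acid to drugs and phenols, read 9.82 and 9.99 in N211del cells, against 0.154 and 0.164 in INTS11 cells (log2 fold change 5.27 ± 0.12 SE, adjusted p = 1.9e-09). The UGT1A genes share exons, and reads of their common part cannot be assigned to one of them. IL7, the cytokine interleukin 7, read 2.03 and 2.08 in N211del cells, against 0.246 and 0.258 in INTS11 cells (log2 fold change 2.61 ± 0.15 SE, adjusted p = 3.45e-07). MUC5AC, a secreted gel-forming mucin, read 10.3 and 10.2 in N211del cells, against 2.03 and 1.899 in INTS11 cells (log2 fold change 2.33 ± 0.06 SE, adjusted p = 3.04e-09). The pair of libraries of a line lay close together for both genes, and the lines were 6.12-fold apart for IL7 and 5.01-fold apart for MUC5AC. PI3, the elastase inhibitor elafin, varied more between replicates and read 5.58 and 6.87 in N211del cells, against 1.82 and 0.407 in INTS11 cells (log2 fold change 2.67 ± 0.59 SE, adjusted p = 0.00285). Its log2 fold change was 3.63 without INTS11 replicate 1 and 1.71 without INTS11 replicate 2, and its adjusted p was 0.112 in limma when the 4 libraries were fitted alone.

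Others encode proteins of the cytoskeleton or regulators of genes. PALLD, an actin-bundling scaffold, read 13.1 and 13.6 in N211del cells, against 2.40 and 2.30 in INTS11 cells (log2 fold change 2.46 ± 0.05 SE, adjusted p = 1.35e-09). ACTA1, skeletal muscle actin, read 5.39 and 4.84 in N211del cells, against 0.653 and 0.244 in INTS11 cells, and the spread of the INTS11 pair was wide beside its mean. KCTD15, a BTB-domain protein, read 6.80 and 8.04 in N211del cells, against 1.40 and 0.927 in INTS11 cells (log2 fold change 2.59 ± 0.16 SE, adjusted p = 7.73e-07). EN2, a homeobox transcription factor, read 10.7 and 8.58 in N211del cells, against 1.98 and 1.71 in INTS11 cells (log2 fold change 2.32 ± 0.13 SE, adjusted p = 4.92e-07). The other genes of the 15 largest positive differences that could be named by symbol were CPA4 (a carboxypeptidase), CRTAM (an immunoglobulin-family receptor), TEX9, HUNK (a kinase), RAB36 (a small GTPase) and RUBCNL (an autophagy regulator). Their log2 fold changes ran from 2.21 in RUBCNL to 4.41 in CPA4. Genes that overlapped between the lines had been left out by the rule that chose the 15. The plot of values by library shows all 15 beside 14 genes of the 15 largest negative differences.

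**Figure D1:**
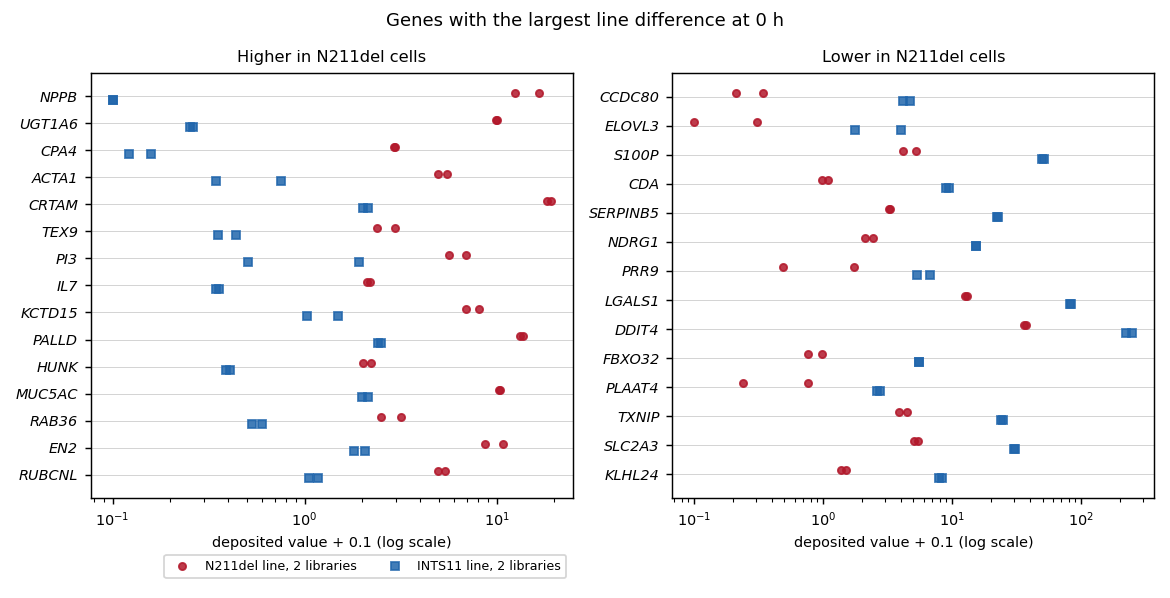
Deposited value plus 0.1 (log scale) of the 15 genes with the largest positive (left) and 14 of the 15 with the largest negative (right) log2 fold change at 0 h, with N211del libraries as red circles above INTS11 libraries as blue squares, 2 libraries each. In every row the 2 red circles lie on the same side of both blue squares, because the rule that chose these genes required it. NPPB sits at the floor in INTS11 cells because it was listed at 0.

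Several of the genes much lower in N211del cells are known to respond to stress or to the supply of glucose. CCDC80, a secreted matrix protein, read 0.111 and 0.239 in N211del cells, against 4.59 and 4.04 in INTS11 cells (log2 fold change -4.04 ± 0.18 SE, adjusted p = 9.79e-08). NDRG1, a gene known to be switched on by hypoxia, read 2.005 and 2.33 in N211del cells, against 15.3 and 15.1 in INTS11 cells (log2 fold change -2.76 ± 0.06 SE, adjusted p = 1.35e-09). DDIT4, an inhibitor of the mTOR pathway that stress induces, read 37.0 and 36.1 in N211del cells, against 249 and 221 in INTS11 cells (log2 fold change -2.68 ± 0.10 SE, adjusted p = 3.43e-08). DDIT4 was the most transcribed of the 3 per kilobase. TXNIP, a thioredoxin-binding protein that follows glucose supply, read 3.74 and 4.33 in N211del cells, against 24.7 and 23.6 in INTS11 cells (log2 fold change -2.55 ± 0.15 SE, adjusted p = 5.59e-07). SLC2A3, the glucose transporter GLUT3, read 4.94 and 5.28 in N211del cells, against 29.8 and 30.4 in INTS11 cells (log2 fold change -2.53 ± 0.04 SE, adjusted p = 5.95e-10), though reads shared with its near-identical neighbour SLC2A14 cannot be told apart.

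Others among the 15 largest negative differences encode calcium-binding, sugar-binding or protease-inhibitor family proteins. S100P, a calcium-binding protein, read 5.14 and 4.03 in N211del cells, against 51.3 and 49.8 in INTS11 cells (log2 fold change -3.44 ± 0.21 SE, adjusted p = 6.9e-07). SERPINB5, the serpin maspin, read 3.11 and 3.16 in N211del cells, against 22.3 and 21.9 in INTS11 cells (log2 fold change -2.78 ± 0.06 SE, adjusted p = 1.35e-09). LGALS1, galectin 1, read 13.0 and 12.4 in N211del cells, against 83.3 and 82.1 in INTS11 cells (log2 fold change -2.69 ± 0.08 SE, adjusted p = 7.61e-09). All were more than 5-fold lower in N211del cells. CDA, cytidine deaminase, FBXO32, a ubiquitin ligase subunit, and KLHL24, a ligase adaptor, had log2 fold changes of -3.16, -2.67 and -2.49. ELOVL3, PLAAT4 and PRR9 were also in the set, at low levels, and ELOVL3 was listed at 0 in 1 N211del library.

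Genes of DNA replication were higher in N211del cells almost without exception. Of 48 genes on a list for S phase, 29 were tested, 28 were higher and 0 lower, with a median log2 fold change of 0.56 against 0.05 over all genes tested. With each library centred on its median 28 were again higher, and POLE2 was the 1 member not called, with a log2 fold change of 0.15. E2F8, a repressor of the E2F family, read 26.0 and 29.3 in N211del cells, against 12.5 and 12.1 in INTS11 cells (log2 fold change 1.16 ± 0.06 SE, adjusted p = 2.93e-07). E2F1, an activator of that family, read 30.4 and 30.1 in N211del cells, against 18.8 and 13.5 in INTS11 cells (log2 fold change 0.92 ± 0.12 SE, adjusted p = 0.000114). MCM3, a subunit of the replicative helicase, read 85.3 and 89.1 in N211del cells, against 48.4 and 46.7 in INTS11 cells (log2 fold change 0.87 ± 0.04 SE, adjusted p = 9.63e-08). The difference was below 2-fold in each of the 29 except E2F8. Of 28 tested genes on a list for mitosis, 4 were higher and 11 lower, with a median of -0.01. The shares over all genes tested were 38.4% higher and 31.6% lower. In bulk samples a larger share of cells in S phase and more transcription of these genes per cell cannot be told apart.

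Genes of protein synthesis and turnover lay on the same side at 0 h. Over all genes tested 38.4% were higher and 31.6% lower, with a median of 0.05. Of 32 tested ribosomal protein genes 31 were higher and 1 lower, with a median of 0.44. RPS9, a protein of the small subunit, read 60.4 and 62.8 in N211del cells, against 34.3 and 33.1 in INTS11 cells (log2 fold change 0.87 ± 0.06 SE, adjusted p = 1.51e-06). The 1 lower member was RPS27L (log2 fold change -0.47 ± 0.09 SE, adjusted p = 0.00111), a ribosomal protein-like gene known as a p53 target. Many of these genes have processed pseudogenes, which makes their values uncertain. Of 26 tested proteasome genes 19 were higher and 2 lower (median 0.25), and of 30 tested spliceosome genes 19 were higher and 2 lower (median 0.25). PSME3, a proteasome activator, read 61.4 and 58.4 in N211del cells, against 37.9 and 34.2 in INTS11 cells, and HNRNPH1, a splicing regulator, read 293 and 305 in N211del cells, against 172 and 167 in INTS11 cells. Of 38 tested genes of the respiratory chain 18 were higher and 9 lower, with a median of 0.10, which is closer to all genes.

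Targets of YAP, the co-activator that works with TEAD factors and follows cell shape and density, were mostly higher. Of 11 tested 10 were higher and 1 lower at 0 h, with a median of 0.61. In DMSO in batch 1, 4 of the 11 were higher and 2 lower, and with each library centred 7 and 0. At 1 h 8 were higher and 1 lower, and with each library centred 4 and 3. The shares of all genes higher and lower were 38.4% and 31.6% at 0 h, 19.7% and 45.9% in DMSO, and 53.2% and 23.7% at 1 h. CCN1, a secreted matricellular protein, read 719 and 734 in N211del cells, against 297 and 278 in INTS11 cells (log2 fold change 1.34 ± 0.04 SE, adjusted p = 4.29e-09). CCN2, its relative, read 76.2 and 69.3 in N211del cells, against 33.3 and 33.5 in INTS11 cells (log2 fold change 1.12 ± 0.05 SE, adjusted p = 1.5e-07). ANKRD1, an ankyrin-repeat protein, read 25.9 and 27.1 in N211del cells, against 12.1 and 11.5 in INTS11 cells (log2 fold change 1.16 ± 0.07 SE, adjusted p = 7.66e-07). All 3 were more than 2-fold higher at 0 h. CCN1 and CCN2 were also called higher at 1 h, 3 h and in DMSO, whereas ANKRD1 was not called at 1 h or in DMSO. NUAK2, a kinase, was the 1 lower member and read 45.02 and 46.9 in N211del cells, against 74.6 and 69.1 in INTS11 cells (log2 fold change -0.64 ± 0.04 SE, adjusted p = 8.78e-07).

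The 250 bases before the start of 3 of these genes are shown, and each of the 3 holds matches to a known motif of its list's factor. Most members of each list were higher. The sequences are RefSeq's on build GRCh38.p14, 5′ to 3′ on the gene's strand. Capitals mark each match to the TEAD motif GGAATG (or CATTCC on the other strand) in CCN2 and ANKRD1, and to the E2F motif GCGGGAA (or TTCCCGC) in MCM3.
CCN2, chr6:131951373-131951622, strand -: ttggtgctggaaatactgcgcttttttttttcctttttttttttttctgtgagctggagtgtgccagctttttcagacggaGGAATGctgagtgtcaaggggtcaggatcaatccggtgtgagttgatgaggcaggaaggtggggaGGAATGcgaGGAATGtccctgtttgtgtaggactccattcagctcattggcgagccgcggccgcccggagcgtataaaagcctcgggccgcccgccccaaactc
ANKRD1, chr10:90921088-90921337, strand -: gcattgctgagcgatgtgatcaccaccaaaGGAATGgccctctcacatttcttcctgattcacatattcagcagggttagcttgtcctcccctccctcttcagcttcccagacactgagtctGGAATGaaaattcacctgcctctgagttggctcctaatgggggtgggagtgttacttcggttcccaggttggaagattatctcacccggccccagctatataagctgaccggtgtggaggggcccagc
MCM3, chr6:52284743-52284992, strand -: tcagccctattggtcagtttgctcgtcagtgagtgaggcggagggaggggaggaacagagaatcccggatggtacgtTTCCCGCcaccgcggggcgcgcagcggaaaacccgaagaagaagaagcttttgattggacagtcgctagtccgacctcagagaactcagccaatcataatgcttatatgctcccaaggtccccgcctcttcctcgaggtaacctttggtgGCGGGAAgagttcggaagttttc
The TEAD letters occurred 3 times in CCN2, with the match nearest to the start beginning 95 bases before it, and 2 times in ANKRD1, the nearest beginning 128 bases before it. The 2 E2F matches in MCM3 began 173 and 23 bases before the start. MCM2, RRM2, UNG and GINS3, scanned for the same motif and not printed, had 0 matches each. Promoters were matched by symbol for 5615 of the 6950 genes tested. The TEAD motif was in 4 of the 8 YAP targets with a promoter, against 9.47% of the promoters of all genes tested, and the E2F motif in 6 of 25 S phase genes, against 9.37%. A match is a run of letters and not a measured binding site.

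Genes of sterol synthesis and uptake were mostly lower in N211del cells. Of 20 tested, 4 were higher and 13 lower, with a median log2 fold change of -0.72, where 38.4% of all genes were higher and 31.6% lower with a median of 0.05. INSIG1, a sensor that holds back sterol synthesis and is itself a target of SREBP, read 64.4 and 69.6 in N211del cells, against 237 and 227 in INTS11 cells (log2 fold change -1.79 ± 0.04 SE, adjusted p = 1.78e-09). HMGCS1, an early enzyme of the pathway, read 98.6 and 99.6 in N211del cells, against 275 and 273 in INTS11 cells (log2 fold change -1.46 ± 0.04 SE, adjusted p = 3.02e-09). Among the higher members were PMVK, ACLY and ACACA, enzymes that make precursors of sterols or fatty acids. Of 23 tested genes of hypoxia and glycolysis 4 were higher and 16 lower (median -0.44), and of 23 tested genes of ATF4 and ER stress 5 were higher and 13 lower (median -0.34). SLC7A11, the cystine transporter, read 11.9 and 12.2 in N211del cells, against 52.5 and 50.8 in INTS11 cells (log2 fold change -2.09 ± 0.04 SE, adjusted p = 7.25e-10).

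Genes that growth signals switch on within minutes were mostly lower too. Of 31 tested immediate early genes 7 were higher and 23 lower, with a median of -0.60. Over all genes tested 38.4% were higher and 31.6% lower. KLF2, a zinc finger factor, read 46.7 and 52.1 in N211del cells, against 187 and 183 in INTS11 cells (log2 fold change -1.90 ± 0.08 SE, adjusted p = 5.75e-08). The nuclear receptor gene NR4A2 read 1.96 and 3.37 in N211del cells, against 7.15 and 8.49 in INTS11 cells (log2 fold change -1.56 ± 0.19 SE, adjusted p = 6.89e-05). JUN, a subunit of AP-1, went the other way and read 286 and 303 in N211del cells, against 139 and 119 in INTS11 cells (log2 fold change 1.19 ± 0.06 SE, adjusted p = 2.17e-07); CCN1 and CCN2 are also on this list and were higher. Of 18 tested genes of MAPK feedback 4 were higher and 13 lower, with a median of -0.58. DUSP5 and DUSP6, phosphatases that switch off ERK, were at 112 and 110.1 in N211del cells, against 515 and 493 in INTS11 cells for DUSP5 (log2 fold change -2.18 ± 0.03 SE, adjusted p = 1.97e-10) and at 219 and 231 in N211del cells, against 739.8 and 742 in INTS11 cells for DUSP6 (log2 fold change -1.72 ± 0.04 SE, adjusted p = 1.35e-09). Neither overlapped between the lines.

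**Figure D2:**
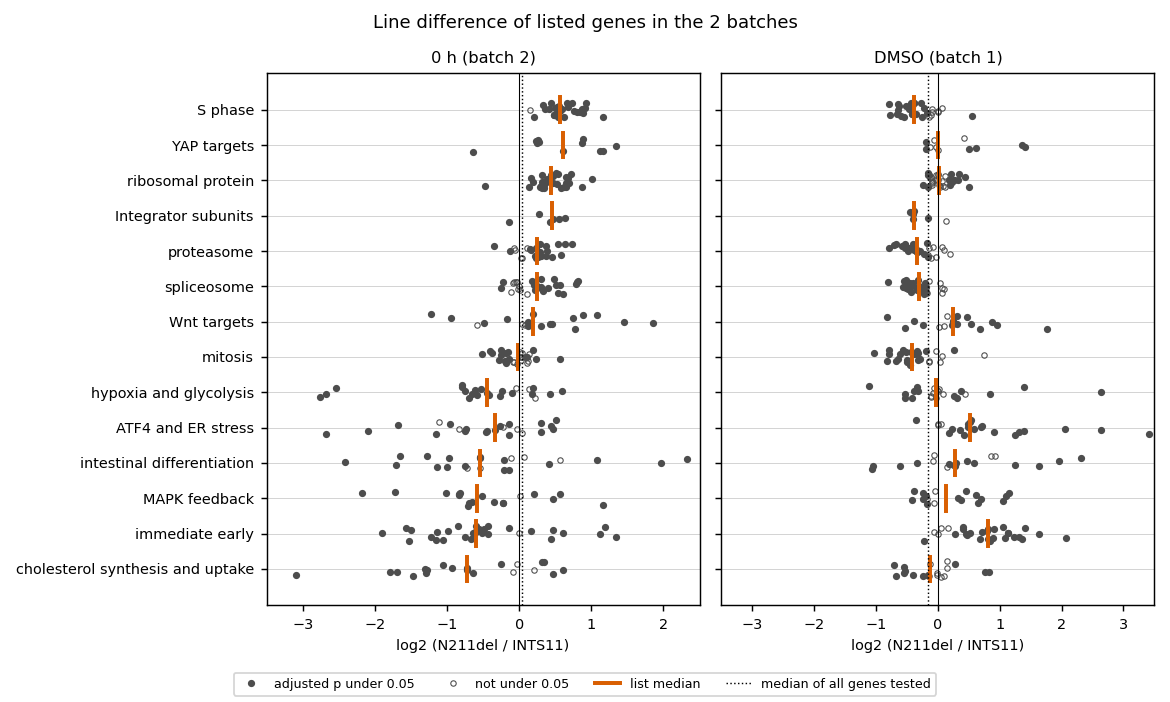
Log2 fold change (N211del over INTS11) of each tested member of 14 gene lists at 0 h in batch 2 (left) and in DMSO in batch 1 (right); filled points are called, open points are not, orange bars are list medians and the dotted line is the median of all genes tested. At 0 h the S phase median lies at 0.56 and the immediate early median at -0.60, while in DMSO they lie at -0.39 and 0.81.

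Intestinal markers differed in part at 0 h. Of 22 tested genes of intestinal differentiation 4 were higher and 13 lower, with a median of -0.54. In DMSO in batch 1 the list went the other way, 9 higher and 4 lower of 19, with a median of 0.27. The shares of all genes higher and lower were 38.4% and 31.6% at 0 h, and 19.7% and 45.9% in DMSO. CEACAM1, an adhesion molecule, was lower and read 0.299 and 0.313 in N211del cells, against 2.45 and 1.74 in INTS11 cells (log2 fold change -2.41 ± 0.25 SE, adjusted p = 1.98e-05), whereas MUC5AC, given above, was higher. Among the epithelial markers KRT19, a simple-epithelium keratin, read 306 and 307 in N211del cells, against 553 and 500.4 in INTS11 cells (log2 fold change -0.78 ± 0.04 SE, adjusted p = 2.88e-07), and KLF5, a factor of crypt cells, read 200.4 and 208 in N211del cells, against 302 and 294 in INTS11 cells (log2 fold change -0.55 ± 0.03 SE, adjusted p = 3.14e-07). CDX2, a homeobox factor of intestinal identity, was higher and read 87.5 and 93.3 in N211del cells, against 71.6 and 64.1 in INTS11 cells (log2 fold change 0.41 ± 0.06 SE, adjusted p = 0.000149). The keratin KRT8 was higher by a log2 fold change of 0.09, but not called with each library centred (limma adjusted p = 0.11) or without INTS11 replicate 2 (adjusted p = 0.0655). Of 19 tested Wnt targets 12 were higher and 4 lower (median 0.20). LGR5, a receptor of intestinal stem cells, read 28.7 and 29.1 in N211del cells, against 10.4 and 10.5 in INTS11 cells (log2 fold change 1.45 ± 0.03 SE, adjusted p = 1.63e-09), and APCDD1, a Wnt inhibitor, read 4.23 and 4.33 in N211del cells, against 1.15 and 1.06 in INTS11 cells (log2 fold change 1.86 ± 0.10 SE, adjusted p = 3.18e-07). In DMSO LGR5 read 33.5 and 33.8 in N211del cells, against 33.4 and 33.4 in INTS11 cells, while APCDD1 was higher there too. Of 36 tested genes of epithelial junctions and keratins 10 were higher and 18 lower at 0 h, with a median of -0.13. CLDN2, a claudin of leaky tight junctions, was one of the higher and read 7.32 and 5.99 in N211del cells, against 2.98 and 3.12 in INTS11 cells (log2 fold change 1.09 ± 0.09 SE, adjusted p = 3.73e-06), while CLDN12, another claudin, had a log2 fold change of -0.79. Of 14 tested HOX genes 9 were higher and 3 lower, with a median of 0.54, beside 38.4% and 31.6% of all genes. HOXB2 read 24.04 and 23.8 in N211del cells, against 6.80 and 6.20 in INTS11 cells (log2 fold change 1.86 ± 0.11 SE, adjusted p = 6.35e-07), HOXD9 had a log2 fold change of 1.46, and HOXB6, in the same cluster as HOXB2, read 233 and 244 in N211del cells, against 458 and 446 in INTS11 cells (log2 fold change -0.92 ± 0.03 SE, adjusted p = 1.44e-08). Of 11 tested genes of antigen presentation 7 were higher and 2 lower, led by TAP2, a peptide transporter, at 5.23 and 5.18 in N211del cells, against 1.61 and 1.81 in INTS11 cells (log2 fold change 1.55 ± 0.12 SE, adjusted p = 2.19e-06) and PSMB10, an immunoproteasome subunit, at 17.7 and 22.9 in N211del cells, against 8.41 and 7.70 in INTS11 cells (log2 fold change 1.31 ± 0.14 SE, adjusted p = 3.06e-05).

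Of the Integrator genes 6 of 19 were tested, and 5 were higher and 1 lower in N211del cells at 0 h, with a median of 0.45. Of all genes 38.4% were higher and 31.6% lower. In DMSO in batch 1 the Integrator genes went the other way, 0 higher and 5 lower of 6, with a median of -0.39. All genes tested in DMSO were also shifted down, 19.7% higher and 45.9% lower with a median of -0.17. INTS1, the largest subunit, read 17.3 and 18.1 in N211del cells, against 11.8 and 11.02 in INTS11 cells (log2 fold change 0.63 ± 0.06 SE, adjusted p = 9.63e-06). NABP1 and NABP2, single-stranded DNA binding proteins that can join the complex, had log2 fold changes of 0.47 and 0.56, INTS10 of 0.43 and INTS2 of 0.27. INIP read 17.9 and 18.5 in N211del cells, against 20.8 and 19.3 in INTS11 cells and was the 1 lower member (log2 fold change -0.14 ± 0.05 SE, adjusted p = 0.0476). It was not called without INTS11 replicate 1 (adjusted p = 0.278), N211del replicate 1 (0.185) or N211del replicate 2 (0.0694). Of 5 tested PP2A genes 1 was higher, PPP2R1A, the scaffold subunit that binds INTS8, at 42.6 and 43.2 in N211del cells, against 39.7 and 36.6 in INTS11 cells (log2 fold change 0.17 ± 0.04 SE, adjusted p = 0.00433). PPP2CB, the second catalytic gene, was lower at 35.6 and 37.4 in N211del cells, against 41.2 and 39.2 in INTS11 cells (log2 fold change -0.14 ± 0.04 SE, adjusted p = 0.0104), but not called without INTS11 replicate 1 (adjusted p = 0.06995) or N211del replicate 1 (0.07797). PPP2R2A, PPP2R3A and PPP2R5C, regulatory subunits, had log2 fold changes of -0.09, -0.02 and -0.08 and were not called. With each library centred, PPP2R2A and PPP2R5C were called lower, at -0.13 and -0.12, so that 3 of the 5 PP2A genes were lower. Among factors of elongation and termination, MLLT1, a subunit of the super elongation complex, read 17.4 and 18.0 in N211del cells, against 11.8 and 11.004 in INTS11 cells, and ZC3H4, a restrictor of early transcription, read 21.9 and 22.3 in N211del cells, against 15.02 and 13.2 in INTS11 cells, both higher. ELL, an elongation factor, was lower at 12.1 and 12.5 in N211del cells, against 16.3 and 15.1 in INTS11 cells. All of these differences were under 2-fold.

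Whether the differences belong to the lines or to one set of cultures can be asked of batch 1, where other libraries of the same 2 lines had DMSO for 3 h. In DMSO 4312 of 6579 genes (65.5%) were called, 1294 higher and 3018 lower in N211del cells, with a median of -0.17; after centring of each library on its median, 2419 were higher and 2064 lower. The log2 fold changes of DMSO also fell with gene length (Spearman rho -0.45 across genes), which those at 0 h did not (0.03). Across the 6569 genes tested in both, the line difference at 0 h did not correlate with that in DMSO, with r = -0.01 and rho = -0.04. Genes not listed for every line in batch 1 could not enter, UGT1A6 among them. In batch 1, 165 genes were listed for the N211del line and not the INTS11 line, and 42 the other way round. With the length trend taken out of each library r was -0.00 and rho -0.06. These contrasts share the lines but no library, and genes are not independent replicates. The vehicle, the batch and the gene values' scaling differ between them and cannot be told apart. Each library was taken as the line its label gives; the tagged genes are not analysed here, and no other check that the labels of both batches match the lines was made, so what the lack of correlation comes from was not tested.

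Of the 2622 of those genes that were higher at 0 h, 484 were also called higher in DMSO and 1320 were called lower. Of the 2116 that were lower at 0 h, 882 were also called lower and 475 called higher. With each library centred, 861 of 2508 genes higher at 0 h were also higher in DMSO and 899 lower, and 695 of 2388 genes lower at 0 h were also lower and 952 higher. Without centring, seen from DMSO, the 484 are 37.4% of the genes higher there and 18.5% of those higher at 0 h, and the 882 are 29.3% of the genes lower in DMSO and 41.7% of those lower at 0 h. Among genes at least 2-fold higher at 0 h, 85 of 180 were called higher in DMSO and 28 lower; among those at least 2-fold lower, 57 of 263 were called lower in DMSO and 112 higher. The background in DMSO was 19.7% of genes higher and 45.9% lower. A test of the difference between the 2 line differences called 4664 of 6569 genes (71.0%), 3096 (47.1%) with a higher value at 0 h and 1568 (23.9%) with a lower one. That split rests on the scaling, and was 2340 and 2466 with each library centred and 2515 and 2228 with the length trend taken out.

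**Figure D3:**
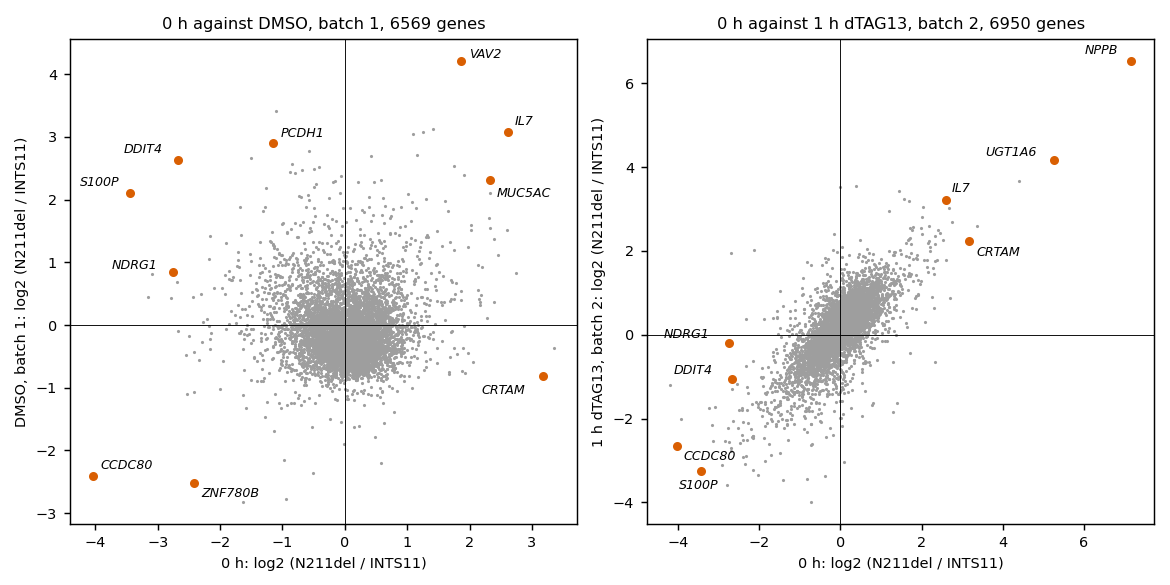
Log2 fold change (N211del over INTS11) of each gene at 0 h (x axis) against that in DMSO in batch 1 (left, y axis) and after 1 h of dTAG13 in batch 2 (right, y axis); grey points are genes and orange points are named genes. The left cloud has no slope (r = -0.01), and the right one lies along the diagonal (r = 0.74).

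Several of the gene groups had the opposite direction in DMSO, and others did not. Of all genes tested in DMSO 19.7% were higher and 45.9% lower, and after centring 2419 were higher and 2064 lower of 6579. S phase genes were lower there, 1 higher and 21 lower of 29, and 4 higher and 17 lower after centring; the difference between 0 h and DMSO was called for all 29. Immediate early genes were higher in DMSO, 24 higher and 1 lower of 29, with 27 and 0 after centring, and the difference was called with a lower value at 0 h for 23 of them. Genes of ATF4 and ER stress were likewise 18 higher and 1 lower of 22 in DMSO. Integrator genes were 0 higher and 5 lower of 6 there, and 1 and 4 after centring, and the difference was called for all 6. Proteasome genes were 0 higher and 18 lower of 26, and 3 and 13 after centring. Spliceosome genes were 0 higher and 24 lower of 30, and 4 and 12 after centring. Genes of intestinal differentiation were 9 higher and 4 lower of 19, and 13 and 3 after centring. DDIT4 read 397 and 358 in N211del cells in DMSO, against 59.2 and 62.5 in INTS11 cells, a log2 fold change of 2.63 where that at 0 h was -2.68. S100P read 24.3 and 21.9 in N211del cells in DMSO, against 4.86 and 5.77 in INTS11 cells, and its log2 fold change was 2.10 where that at 0 h was -3.44. PCDH1, a protocadherin chosen after its values were seen, had log2 fold changes of -1.15 at 0 h and 2.91 in DMSO. Ribosomal protein genes had no single direction in DMSO, with 10 higher and 5 lower of 32, 22 and 0 after centring, and 2 and 22 after the length trend was taken out. Wnt targets kept their direction, 11 higher and 4 lower of 18, and 14 and 3 after centring. Mitosis genes were again more often lower, 1 higher and 21 lower of 28, and 5 and 18 after centring. HOX genes were 4 higher and 0 lower of 9, and 9 and 0 after centring, but 1 and 3 after the length trend was taken out. Sterol genes were 3 higher and 8 lower of 20, and 7 and 6 after centring.

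A smaller set of genes kept the direction of its line difference in every contrast. Of the genes tested in both batches, 697 (10.6%) were called in 1 direction at 0 h, 1 h, 3 h and in DMSO, 355 higher and 342 lower in N211del cells, and 115 of them (1.75%) differed at least 1.5-fold in each of the 4, 89 higher and 26 lower. IL7 read in DMSO 2.17 and 2.19 in N211del cells and 4.39 and 4.35 in INTS8 cells, against 0.193 and 0.151 in INTS11 cells. MUC5AC read in DMSO 7.46 and 7.49 in N211del cells and 6.78 and 6.44 in INTS8 cells, against 1.19 and 1.72 in INTS11 cells. In both genes the INTS8 line, which carries the same tag and no mutant, lay with the N211del line. VAV2 and NEO1, named after their values were seen, behaved alike. VAV2, an exchange factor for small GTPases, read 5.69 and 5.58 in N211del cells, against 1.53 and 1.41 in INTS11 cells at 0 h and in DMSO 6.08 and 6.05 in N211del cells and 5.59 and 5.65 in INTS8 cells, against 0.234 and 0.234 in INTS11 cells. NEO1, the receptor neogenin, read 4.597 and 4.88 in N211del cells, against 1.55 and 1.43 in INTS11 cells at 0 h and in DMSO 4.90 and 4.86 in N211del cells and 6.74 and 6.83 in INTS8 cells, against 1.15 and 1.17 in INTS11 cells. In the other direction ZNF780B, a zinc finger gene, read 0.453 and 0.570 in N211del cells, against 3.20 and 3.11 in INTS11 cells at 0 h (log2 fold change -2.42 ± 0.12 SE, adjusted p = 1.97e-07) and in DMSO 0.644 and 0.572 in N211del cells and 0.858 and 0.930 in INTS8 cells, against 3.93 and 3.93 in INTS11 cells. CCDC80 read in DMSO 0.158 and 0.203 in N211del cells and 0.338 and 0.225 in INTS8 cells, against 1.24 and 1.56 in INTS11 cells. INTS8 cells shared the low level of N211del cells in both genes. CCN1 and JUN kept their direction too, with log2 fold changes in DMSO of 1.40 and 1.06. The contrasts of N211del and of INTS8 cells with INTS11 cells in DMSO share the INTS11 libraries.

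**Figure D4:**
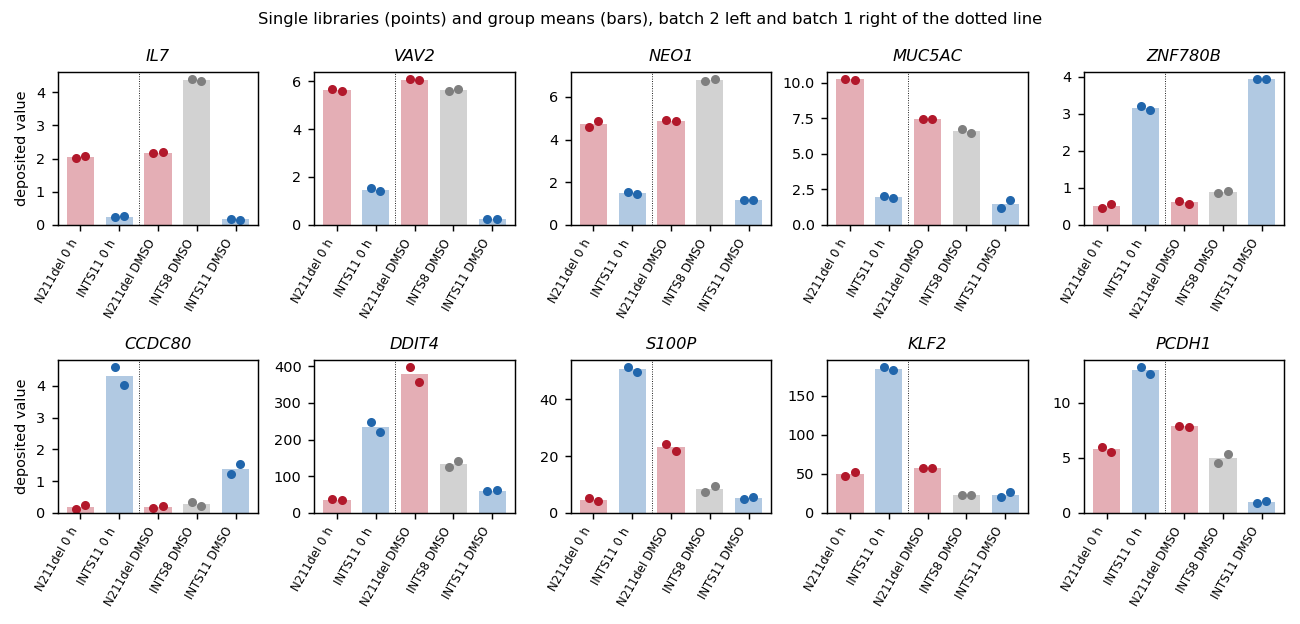
Deposited value of 10 genes in single libraries (points) with group means (bars), 2 libraries a group, for N211del and INTS11 cells at 0 h in batch 2 (left of the dotted line) and N211del, INTS8 and INTS11 cells in DMSO in batch 1 (right); the scaling of the values differs between the batches. IL7, VAV2, NEO1 and MUC5AC are high in N211del and INTS8 cells, ZNF780B and CCDC80 are high in INTS11 cells, and DDIT4, S100P, KLF2 and PCDH1 change sides between the batches.

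Within batch 2 most differences called at 0 h were called in the same direction once dTAG13 had been given. The line difference at 0 h correlated across 6950 genes with that at 1 h (r = 0.74) and at 3 h (r = 0.70); these contrasts share no library but do share batch and lines. At 1 h 76.9% of genes were called, 53.2% higher and 23.7% lower, and at 3 h 77.1%, 49.5% higher and 27.5% lower; after centring 2557 genes were higher and 2703 lower at 1 h, and 2666 higher and 2753 lower at 3 h. Of the 215 genes called and at least 2-fold higher at 0 h, 191 were called higher at 1 h and 195 at 3 h. Of the 324 lower ones, 277 were called lower at 1 h and 275 at 3 h. Over all 2668 genes higher at 0 h, 2355 were called higher and 49 lower at 1 h, and 2235 higher and 95 lower at 3 h. Over all 2194 genes lower at 0 h, 1270 were called lower and 388 higher at 1 h, and 1378 lower and 369 higher at 3 h. NPPB read 9.37 and 8.83 at 1 h and 6.85 and 4.90 at 3 h in N211del cells, and in INTS11 cells 0 and 0 at 1 h and 0.390 and 0 at 3 h. NDRG1 was an exception. It read 20.04 and 19.5 in N211del cells at 1 h, against 22.8 and 22.5 in INTS11 cells, and 24.6 and 25.01 in N211del cells at 3 h, against 20.7 and 20.5 in INTS11 cells. Its log2 fold change was -2.76 at 0 h, -0.20 at 1 h and 0.27 at 3 h. Immediate early genes were 10 higher and 14 lower of 31 at 1 h, and 13 higher and 12 lower at 3 h, while S phase genes were 28 higher and 0 lower of 29 at 1 h, and 25 higher and 0 lower at 3 h. After centring, the immediate early counts were 9 and 19 at 1 h and 9 and 16 at 3 h, and the S phase counts 25 and 1 at 1 h and 20 and 2 at 3 h.

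The line difference was also read in the genes that answered to loss of an Integrator subunit. The 544 tested genes that rose at least 2-fold with dTAG13 in the INTS8 line of batch 1 were 167 higher (30.7%) and 216 lower (39.7%) in N211del cells, with a median of -0.09, against 38.4% and 31.6% of all genes. Of 62 that fell, 25 were higher and 28 lower. The 194 that rose at least 2-fold in the INTS11 line were 41 higher and 62 lower, with a median of -0.14. By position, the median log2 fold change of the 23 chromosomes (Y left out) ran from -0.03 to 0.11 over the 6942 genes placed by symbol, against 0.05 over all genes tested.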

How the data were processed

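The deposited tables of the TT-seq libraries were used, grouped by the labels, which also give times and replicate numbers. The labels' treatment protocol gives 3 h of dTAG13 for every sample; the times in the titles were used. The tools named, per the submitters' processing notes, are DESeq2 1.26.0, Picard 2.23.3, SAMtools 1.9, STAR 2.7.5c and Trim Galore 0.6.6, and the builds are hg19 and mm10, with no stated role. A stranded kit was used, per the labels' protocols; no source here says if strand was used in counting, and overlapping and antisense genes are therefore uncertain.

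The deposited values are FPKM per the file headers. They behaved as whole-number units per gene length (median 32273 bp, so introns are included), found for 7161 of 7223 genes; in batch 2 they were also multiplied by 1 factor per library. Of values checked, at least 99.9% were whole within 0.02 units. The origin of the factors is not stated in the labels. The units of batch 1 may have been scaled before rounding, so they are not called reads. The main test did not use the units as counts, but the chi-square test of replicate pairs and the voom alternative did. Batch 1 lists a different set of genes for each line, and only the 6603 listed in all 3 lines could enter its tests.

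A gene was tested if its mean across the 12 libraries of its batch reached 0.1. The test was limma 3.58.1 (R 4.3.3) on log2(value + 0.1), with group means and a trended, robust empirical Bayes spread, two-sided, with Benjamini-Hochberg adjustment at 0.05 over all genes; fold changes on this scale understate changes of low genes. The difference between batches was tested in 1 fit of the 24 libraries. The pipeline was tested on simulated data. Labels call the libraries biological duplicates without saying how they were grown apart, so p-values measure the spread between these libraries.

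Named genes were the 15 called genes with the largest positive and the 15 with the largest negative log2 fold change at 0 h, with a mean of at least 1, groups that do not overlap and no non-coding or provisional symbol; the Integrator and PP2A genes; and the 2 called genes of each of 35 lists with the largest change. HMGCS1, MCM3, CCN2, JUN, NUAK2, RPS27L, HOXB6, KRT19, KLF5, CDX2, KRT8, NEO1 and VAV2 were added after their values were seen, as were the members listed only by name. A few genes that these rules select are not reported here. The members and lists were chosen with earlier results of these data known. Lists are described by counts and medians, with no set test. Chromosomes and promoter sequences were matched by symbol to RefSeq tables (GRCh38.p14). Alternatives were the pseudocount, the filter, centring, a replicate block, the libraries fitted, leaving out each library, averaging pairs within sampling noise, a length correction, voom on the units, and both batches in 1 fit.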

Additional observations from a re-analysis of the deposited data

Results flagged for a closer look

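The line difference at 0 h differed from that in DMSO, by a test of the difference itself in 1 limma fit of both batches, in 4664 of 6569 genes. The values here are the log2 fold change at 0 h minus that in DMSO, each N211del over INTS11, and each had an adjusted p under 0.05. Batch and vehicle cannot be told apart in them. They also hold the scaling of the libraries, and the median over all genes was 0.21. With each library centred on its median, 4806 genes were called.

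Among the genes described above, the most negative differences were S100P -5.55, DDIT4 -5.31, PCDH1 -4.06, CDA -3.601, NDRG1 -3.59, LGALS1 -3.39, DUSP5 -3.23, KLF2 -3.22 and SERPINB5 -3.21. All 9 were lower in N211del cells at 0 h and higher in DMSO. Differences of middle size below 0 were SLC7A11 -2.67, FBXO32 -2.57, INSIG1 -2.56, VAV2 -2.34, KLHL24 -2.31, TXNIP -2.07, DUSP6 -2.04, CLDN2 -1.96, NR4A2 -1.73 and CCDC80 -1.63. Of these VAV2 and CLDN2 were called higher in N211del cells in both batches, and CCDC80 and TXNIP lower in both, so their difference is one of size. SLC7A11, INSIG1 and DUSP6 were lower at 0 h and higher in DMSO, and FBXO32, KLHL24 and NR4A2 were lower at 0 h and not called in DMSO. Smaller differences below 0 were SLC2A3 -1.43, CEACAM1 -1.35, HOXB6 -1.29, NUAK2 -1.26, HMGCS1 -1.23, KRT19 -1.04, KLF5 -0.48, IL7 -0.46, CLDN12 -0.58, NEO1 -0.38, RPS27L -0.37 and KRT8 -0.235. SLC2A3, CEACAM1, HMGCS1 and CLDN12 were lower and IL7, NEO1 and KRT8 higher in both batches, HOXB6, NUAK2 and KRT19 were lower at 0 h and higher in DMSO, and KLF5 and RPS27L were lower at 0 h and not called in DMSO.

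Among the same genes the most positive differences were CRTAM 3.99, ACTA1 3.72, TEX9 1.92, TAP2 1.81, HOXB2 1.47, LGR5 1.44, PALLD 1.34, APCDD1 1.32, RUBCNL 1.28, HNRNPH1 1.27, MCM3 1.264 and E2F8 1.254. All 12 were higher in N211del cells at 0 h. In DMSO CRTAM, HNRNPH1 and MCM3 were lower, TEX9, PALLD, APCDD1 and RUBCNL higher, and the other 5 were not called. Smaller differences above 0 were KCTD15 1.07, HUNK 1.03, PRPF19 1.02, RPS9 0.97, E2F1 0.91, PSMB10 0.89, PSMD2 0.79, EN2 0.78, PSME3 0.76, ANKRD1 0.74 and CDX2 0.265. Among Integrator, PP2A, elongation and termination genes the differences were ELL -0.39, INIP 0.31, INTS1 0.50, INTS10 0.83, INTS2 0.67, MLLT1 0.66, NABP1 0.87, NABP2 0.72, PPP2CB 0.27, PPP2R1A 0.26, PPP2R2A 0.29, PPP2R3A -0.56 and ZC3H4 0.70.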

How the results depend on the processing

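At 0 h 4862 genes were called, and between 4208 and 5052 under the other settings run. Leaving out each library in turn gave 4376 to 4507, with 2272 to 2640 genes higher and 1866 to 2178 lower. The fit of both batches together, which averages 0 h with DMSO, gave 1639 genes higher, against 2668, and 2786 lower. Taking out the length trend gave 2526 higher and 2526 lower. In DMSO 3430 to 4483 genes were called, at 1 h 4877 to 5489, at 3 h 4570 to 5496, and for the difference between batches 3876 to 4806. Centring turned the split at 1 h to 2557 higher and 2703 lower, against 3700 and 1645, and at 3 h to 2666 and 2753, against 3443 and 1914. Replicate numbers do not pair the libraries: same-numbered libraries deviated together with r = -0.05 at 0 h. With the numbers as a replicate block 4816 genes were called at 0 h. Of 1632 values of 110 named genes under other settings 38 lost their call, PI3 with only the libraries of the contrast among them, 8 gained one and 5 changed sign: INTS2 to -0.064, PCDH1 to 0.88 and PPP2R3A to 0.26 with both batches in 1 fit, and PPP2R3A, not called, to at most 0.0197 when 1 library was left out (range -0.0514 to 0.0197). The cause was not tested. With 2 libraries a group, one spread shared by 12 libraries sets the p-values.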
